A study of Mus musculus with 12 samples.

Results

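The genes described here are 9 mouse genes that carry, make, bind, degrade or sense retinoids: Rbp4, Stra6, Dhrs9, Aldh1a2, Aldh1a3, Crabp1, Crabp2, Cyp26b1 and Rarg. They were chosen by name, and all 9 were found by gene ID and symbol among the 47643 genes of the deposited tables. The tables hold poly(A) RNA-seq of 12 libraries in 4 groups of 3, from C57BL/6 mice aged 10 weeks. Skin KO and Epidermis KO libraries came from whole skin and from epidermis of animals with a conditional Adam17 knockout, made by crossing Sox9-Cre with ADAM17fl/fl, and Skin WT and Epidermis WT libraries came from the same tissues of animals labelled only as wild type. ADAM17 is a cell-surface protease that releases EGFR ligands and TNF. Cre driven by Sox9 acts in Sox9-expressing cells and their descendants, which in skin include the hair follicle epithelium, so other cells can keep the gene. The labels do not say whether the wild type animals carried the floxed alleles or Cre, nor whether each library of a group is another animal, so the p-values measure only the spread between these libraries, which may be technical. The KO libraries of each tissue differed in their Y-linked reads, given below, and so were not repeats of 1 RNA sample.

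Retinol reaches the skin bound to the plasma carrier RBP4, and STRA6 is a membrane receptor that takes retinol up from it. Inside the cell, alcohol and short-chain dehydrogenases oxidise retinol to retinal, retinal dehydrogenases of the ALDH1A family oxidise retinal to retinoic acid, and CYP26 enzymes hydroxylate retinoic acid and so inactivate it. Retinoic acid binds the CRABP proteins in the cytosol and RAR-RXR receptor pairs in the nucleus, and in epidermis it is known to alter keratinocyte growth and cornification.

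Total expected counts per library ran from 12208522 to 16743144. A gene with 0 counts could still have had up to 3, or 0.179 to 0.246 CPM (counts scaled to the library's total) depending on the library, a limit that covers counting error only. Adam17 checked the genotype labels: it stood at 41.7, 52.2 and 52.6 CPM in Skin KO against 72.4, 96.4 and 94.2 CPM in Skin WT, and at 48.4, 58.1 and 47.4 CPM in Epidermis KO against 79.0, 86.5 and 79.5 CPM in Epidermis WT, with no overlap in either tissue. Of all genes tested, 58.0% in skin and 62.0% in epidermis likewise showed no overlap. Reads were counted over the whole gene, so transcripts that lack the floxed part count as well. Marker genes followed the labelled tissues. The summed level of 9 dermal fibroblast genes was 14.2 to 21.0 CPM in Epidermis WT and 2131 to 2891 CPM in Skin WT, and that of 6 basal keratinocyte genes was 22918 to 26077 CPM in Epidermis WT and 11945 to 12929 CPM in Skin WT. The genotypes were not matched for Y-linked RNA. Reads of 4 Y-linked genes numbered 1728, 0 and 1034 in Skin KO and 1781, 213 and 679 in Epidermis KO, against 0 in each of the 6 WT libraries. Xist, which female cells transcribe from their silenced X, had 0, 430 and 319 reads in Skin KO and 0, 2511 and 2050 in Epidermis KO, against 660.0 to 2193 in Skin WT and 1719 to 3222 in Epidermis WT. Thus 3 KO libraries held both kinds of read, and the labels do not say whether animals were pooled. In epidermis the presence of Y-linked RNA and the knockout cannot be told apart. Adam17 lost its skin call (adjusted p under 0.05 in edgeR) in 2 of 14 alternative settings. These were the share of Y-linked counts as a covariate (log2 fold change -0.59, adjusted p = 0.0805) and leaving out Skin KO 1 and 3 (-0.63). Its epidermal call held in all 13.

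Levels of different genes are compared here per transcript length, as deposited TPM (a length-normalised level), and all other levels are CPM scaled by TMM (trimmed mean of M values) over the 12 libraries. By TPM, Crabp2 came first and Rarg second in all 4 groups. Crabp2 averaged 557 ± 140.2 TPM in Skin KO and 134 ± 20.1 TPM in Skin WT, and 261 ± 7.01 TPM in Epidermis KO and 175 ± 9.56 TPM in Epidermis WT (SD, n = 3 in each group). In Skin WT its range overlapped that of Rarg, and in the other 3 groups it did not. The genes below this pair came in another order in each group. In Skin KO, Aldh1a3 (56.2 TPM), Stra6 (16.7 TPM), Dhrs9 (10.7 TPM), Crabp1 (10.6 TPM), Cyp26b1 (9.97 TPM), Rbp4 (5.16 TPM) and Aldh1a2 (0.217 TPM) followed, and the neighbours Dhrs9, Crabp1 and Cyp26b1 overlapped. Skin WT ran Rbp4 (49.4 TPM), Cyp26b1 (23.3 TPM), Crabp1 (11.5 TPM), Aldh1a3 (5.52 TPM), Dhrs9 (2.35 TPM), Aldh1a2 (0.657 TPM) and Stra6 (0.527 TPM), and all neighbours in that run overlapped except Dhrs9 and Aldh1a2. Stra6 thus stood last of the 9 genes in Skin WT, and just below Aldh1a3 in Skin KO. Epidermis KO ran Aldh1a3 (15.9 TPM), Stra6 (10.7 TPM), Dhrs9 (9.71 TPM), Cyp26b1 (1.39 TPM), Crabp1 (1.24 TPM), Rbp4 (1.09 TPM) and Aldh1a2 (0.0367 TPM), with gaps only between Dhrs9 and Cyp26b1 and between Rbp4 and Aldh1a2. In Epidermis WT the order was Cyp26b1 (7.07 TPM), Dhrs9 (0.84 TPM), Crabp1 (0.75 TPM), Stra6 (0.49 TPM), Aldh1a3 (0.46 TPM), Rbp4 (0.0667 TPM) and Aldh1a2 (0.0133 TPM), with gaps only below Cyp26b1 and between Aldh1a3 and Rbp4.

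**Figure D1:**
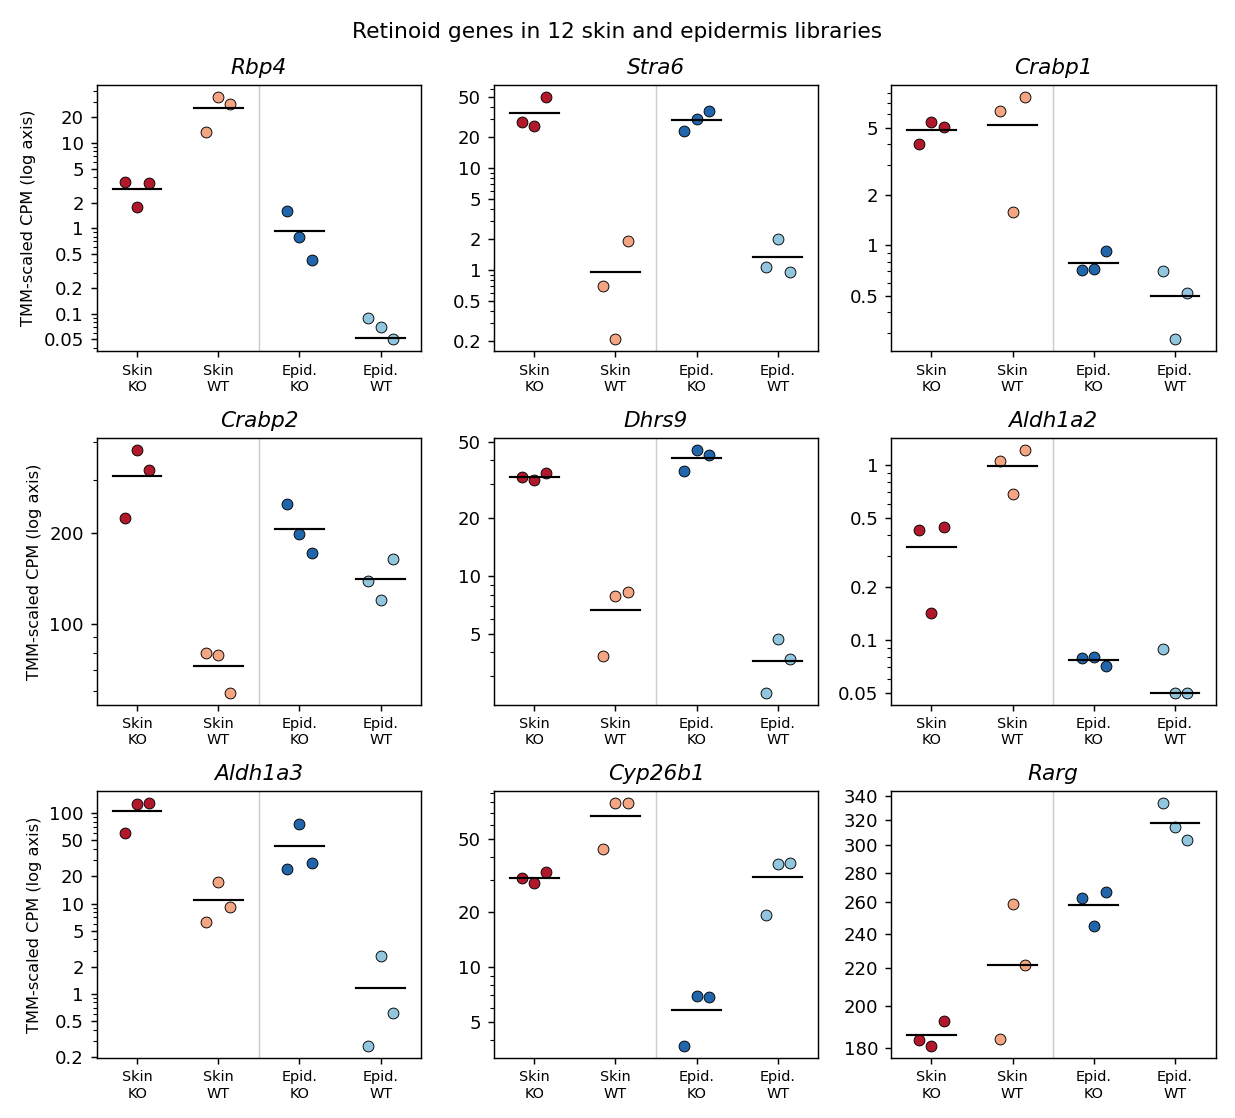
TMM-scaled CPM (log axis, own range in each panel) of the 9 retinoid genes in the 12 libraries. Points are libraries, bars are group means, and values and means under 0.05 CPM are drawn at 0.05. Stra6, Aldh1a3 and Dhrs9 stand higher in every KO library than in any WT library of the same tissue, and Cyp26b1 stands lower.

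The RefSeq promoter table for GRCm38.p6 held windows of 300 bases, from 250 bases before to 50 bases after an annotated start, for 7 of the 9 genes (12 windows, since some genes have several starts). Crabp2 and Aldh1a3 were not among them. Windows are shown for 4 genes whose RNA differed between genotypes in opposite directions: Dhrs9 and Stra6, which were higher in KO in both tissues, Cyp26b1, which was lower in both, and Rbp4, which was lower in KO skin. They are printed 5′ to 3′ on the gene's own strand in lower case, with matches on either strand to 4 words in capitals: TGANTCA, the site of AP-1 factors (N is any base), AGGTCA, the half-site of retinoid receptors, TTCNNNGAA, the site of STAT factors, and TATAAA, the TATA box. For Stra6 the first-listed of 4 starts is shown, and for Rbp4 the second-listed of 2, chosen because it held matches. Gene-level counts do not tell which start was used.
Dhrs9, chr2:69380212-69380511, plus strand: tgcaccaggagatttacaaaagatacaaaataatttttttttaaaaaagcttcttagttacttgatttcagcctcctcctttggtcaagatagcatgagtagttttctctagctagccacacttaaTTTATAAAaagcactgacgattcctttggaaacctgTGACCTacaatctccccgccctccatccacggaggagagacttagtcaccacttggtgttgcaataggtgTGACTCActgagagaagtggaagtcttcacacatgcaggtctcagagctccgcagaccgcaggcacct
Stra6, chr9:58128838-58129137, plus strand: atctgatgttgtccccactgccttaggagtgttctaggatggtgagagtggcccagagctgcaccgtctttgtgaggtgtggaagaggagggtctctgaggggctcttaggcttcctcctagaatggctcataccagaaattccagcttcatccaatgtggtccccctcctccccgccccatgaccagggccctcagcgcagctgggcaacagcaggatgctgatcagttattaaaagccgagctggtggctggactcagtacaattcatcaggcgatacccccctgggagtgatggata
Cyp26b1, chr6:84593761-84594060, minus strand: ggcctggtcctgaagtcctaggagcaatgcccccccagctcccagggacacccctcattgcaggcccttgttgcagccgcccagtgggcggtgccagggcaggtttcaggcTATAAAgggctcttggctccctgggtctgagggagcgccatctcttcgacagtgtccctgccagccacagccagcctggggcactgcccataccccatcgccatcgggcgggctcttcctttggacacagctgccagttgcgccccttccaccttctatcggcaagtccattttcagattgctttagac
Rbp4, chr19:38124762-38125061, minus strand: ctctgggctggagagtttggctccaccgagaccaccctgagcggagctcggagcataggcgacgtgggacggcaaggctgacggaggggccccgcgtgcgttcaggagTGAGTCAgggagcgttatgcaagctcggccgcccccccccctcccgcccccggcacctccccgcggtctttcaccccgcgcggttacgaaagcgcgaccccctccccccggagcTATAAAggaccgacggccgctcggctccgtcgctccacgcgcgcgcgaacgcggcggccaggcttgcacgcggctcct
The Dhrs9 window held an AP-1 word (TGACTCA) 18 to 12 bases before the start, a half-site on the minus strand 88 to 83 bases before it and a TATA word on each strand, 122 to 117 and 124 to 119 bases before it, which overlap. The Rbp4 window held an AP-1 word (TGAGTCA) 142 to 136 bases and a TATA word 28 to 23 bases before the start. The Cyp26b1 window held a TATA word 139 to 134 bases before the start, and the Stra6 window held none of the 4 words. Of the other member windows, one of Rarg held a half-site. Among all 32851 windows of the table, 7.81% held the AP-1 word, 16.3% the half-site, 8.3% the STAT word and 13.6% the TATA word. A pair of AGGTCA half-sites in the same orientation and 5 bases apart, an arrangement that RAR-RXR pairs bind, was in 0.00913% of all windows and in none of the 12. These matches describe letters in the windows and no more.

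The first comparison set the knockout against wild type in whole skin. Stra6, Aldh1a3, Dhrs9 and Crabp2 rose in Skin KO, Rbp4, Cyp26b1 and Aldh1a2 fell, and Crabp1 and Rarg did not pass. Thus 7 of the 9 genes passed an adjusted p of 0.05 in edgeR's quasi-likelihood test, which was used for every fold change below, with p-values adjusted by Benjamini-Hochberg over the whole table. Among all genes tested in skin 45.5% passed, with 22.2% higher and 23.3% lower, so passing alone sets few genes apart in this comparison. In epidermis, where 51.5% of all genes tested passed (26.2% higher, 25.3% lower), 6 of the 9 genes were expressed highly enough to be tested. Stra6, Aldh1a3, Dhrs9 and Crabp2 rose there too, Cyp26b1 fell and Rarg did not pass. Rbp4, Crabp1 and Aldh1a2 had too few epidermal reads for the test. Without a filter on low counts, or in 1 fit of all 12 libraries, all 9 genes were tested there. In both settings 5 passed as higher, against 4 here. In skin Stra6, and in epidermis Aldh1a3, reached the expression filter through their KO libraries, and Aldh1a2 reached it in skin through its WT libraries.

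**Figure D2:**
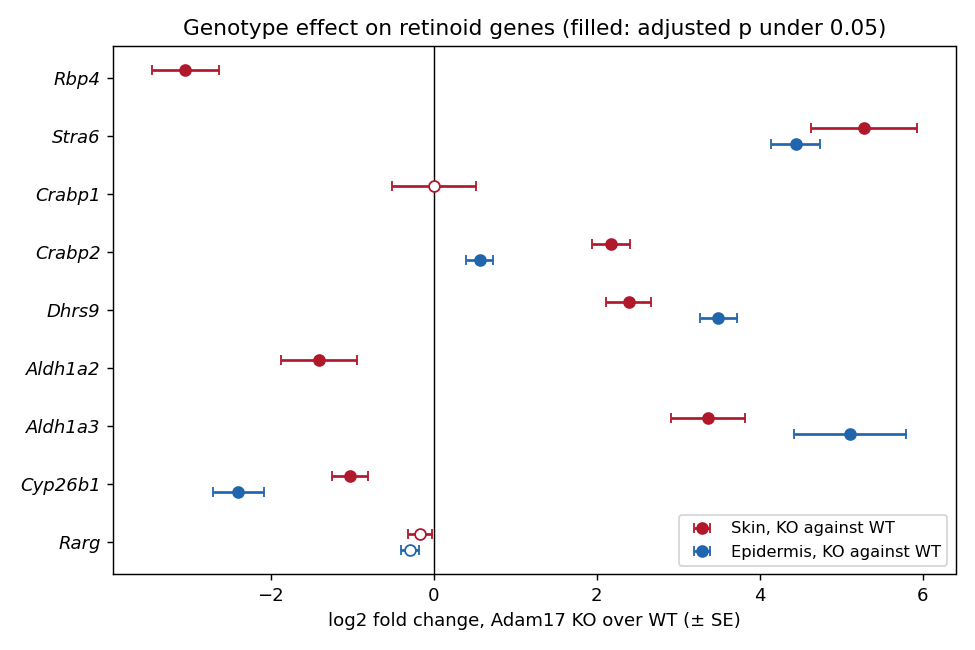
Log2 fold change of each retinoid gene, KO over WT, in whole skin and in epidermis, with bars of 1 SE from edgeR. Filled points passed an adjusted p of 0.05. Stra6, Aldh1a3 and Dhrs9 lie above 2 in both tissues, Cyp26b1 lies below -1 in both, and Rbp4, Crabp1 and Aldh1a2 have no epidermal point.

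Rbp4 (chromosome 19, 38116629 to 38125281, minus strand, GRCm38) encodes the plasma carrier of retinol and is made by adipocytes as well as liver. It stood at 3.48, 1.79 and 3.36 CPM in Skin KO, against 13.4, 34.4 and 28.6 CPM in Skin WT. The groups did not overlap, as for 58.0% of all genes tested in skin, and every KO library lay far below the lowest WT library. The log2 fold change was -3.05 (SE 0.41, adjusted p = 0.00155). It was -3.71 when Skin KO 1 and 3, the libraries with Y-linked reads, were left out. That setting leaves only Skin KO 2, the KO library lowest in Rbp4, so a larger fall was bound to follow. In epidermis Rbp4 had 36 reads over the 3 KO libraries (20, 10 and 6) and 2 reads over the 3 WT libraries (1, 1 and 0), a ratio of 17.1 with an exact 95% counting interval of 4.39 to 146. Epidermal RNA of Rbp4 was scarce in both genotypes, at up to 1.58 CPM in KO and up to 0.0884 CPM in WT. Markers of other cell types moved with Rbp4 in skin: all 8 adipocyte genes fell, with a summed level of 124 to 297 CPM in Skin KO and 1532 to 1977 CPM in Skin WT, and 5 of 9 dermal fibroblast genes fell (773 to 1728 CPM in Skin KO, 2131 to 2891 CPM in Skin WT). None of the genes on either list was at 0 in a skin group. Falls in skin were not particular to these lists. Also lower were 6 of 7 skeletal muscle, 5 of 6 Schwann cell and 3 of 3 tested mesothelium genes. Of 6 endothelial genes 5 fell and 1 rose. Of all genes tested, 23.3% fell in skin and 26.2% rose in epidermis. In epidermis 7 of 7 tested fibroblast genes rose (85.1 to 147 CPM in Epidermis KO, 14.2 to 21.0 CPM in Epidermis WT), while the adipocyte sum was 3.64 to 11.1 CPM in Epidermis KO and 4.68 to 6.21 CPM in Epidermis WT. The part of these markers in the Rbp4 result was not tested, and in bulk tissue fewer cells of a type and less RNA per cell cannot be told apart.

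Stra6 (chromosome 9, 58063788 to 58153996, plus strand) encodes the receptor that takes retinol up from RBP4. It was low in wild type and far higher in every KO library of the same tissue. Skin KO libraries held 28.1, 25.6 and 49.6 CPM, against 0.701, 0.209 and 1.95 CPM in Skin WT. Epidermis KO libraries held 22.9, 30.2 and 36.1 CPM, against 1.06, 2.0 and 0.951 CPM in Epidermis WT. The groups stood apart in both tissues, with a wide gap between the lowest KO library and the highest WT library. The log2 fold change was 5.28 in skin (SE 0.65, adjusted p = 0.00112) and 4.44 in epidermis (SE 0.30, adjusted p = 1.64e-05). In skin the size rested on few WT reads, 46 over 3 libraries, and without Skin WT 3 it was 6.37. The annotated span of Stra6 shares 55036 bases with Ccdc33 on the opposite strand, and the strand setting of the counting is not given in the sources used here. Ccdc33 had a mean of at most 0.203 CPM in any group.

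Dhrs9 (chromosome 2, 69380445 to 69404533, plus strand) encodes a short-chain dehydrogenase that can oxidise retinol as well as 3-alpha-hydroxysteroids. It held 32.7, 31.5 and 34.2 CPM in Skin KO against 3.85, 7.84 and 8.21 CPM in Skin WT, and 35.0, 45.1 and 42.6 CPM in Epidermis KO against 2.47, 4.69 and 3.72 CPM in Epidermis WT. No KO library overlapped a WT library, and the KO libraries of skin lay close together. Its log2 fold change was 2.39 in skin (SE 0.27, adjusted p = 0.000842) and 3.49 in epidermis (SE 0.23, adjusted p = 1.41e-05). It kept its call in all 14 alternatives in skin and all 13 in epidermis.

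Aldh1a3 (chromosome 7, 66390890 to 66427517, minus strand), one of the retinal dehydrogenases that make retinoic acid, rose in both tissues. Its levels were 60.9, 126 and 129 CPM in Skin KO, against 6.23, 17.2 and 9.18 CPM in Skin WT. In epidermis they were 24.4, 76.3 and 28.3 CPM in KO, against 0.265, 2.62 and 0.605 CPM in WT. The groups did not overlap in either tissue, although libraries of 1 group spread widely: Epidermis WT 2 held 38 of the 48 reads of its group and Epidermis KO 2 stood above the other KO libraries. The log2 fold change was 3.36 in skin (SE 0.45, adjusted p = 0.00155) and 5.11 in epidermis (SE 0.69, adjusted p = 0.000484). Without Epidermis WT 2 the epidermal value was 6.60, and without Epidermis KO 2 it was 4.42, with the call kept both times.

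Aldh1a2 (chromosome 9, 71215789 to 71296243, plus strand), another retinal dehydrogenase, was scarce everywhere. It stood at 0.426, 0.143 and 0.444 CPM in Skin KO (15 reads in all) against 1.05, 0.68 and 1.22 CPM in Skin WT (48 reads), and had 3 reads over Epidermis KO and 1 read over Epidermis WT. The skin groups did not overlap, and the log2 fold change was -1.41 (SE 0.47, adjusted p = 0.0438). That call was lost in 9 of 14 alternatives, among them DESeq2 (adjusted p = 0.107), the absence of a filter on low counts (adjusted p = 0.0758), the share of Y-linked counts as a covariate (adjusted p = 0.0551) and leaving out either of Skin WT 1 and 3 or any one Skin KO library (adjusted p between 0.0798 and 0.133). The estimate stayed negative in all 14 and ran from -2.60 to -1.08. With 3 reads against 1 in epidermis no fold is given there.

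Crabp2 (chromosome 3, 87948666 to 87953376, plus strand) encodes the cytosolic protein that hands retinoic acid to nuclear RARs. Skin KO held 224, 376 and 323 CPM, against 79.9, 78.6 and 59.1 CPM in Skin WT and every KO library lay well above the highest WT library. The log2 fold change in skin was 2.18 (SE 0.23, adjusted p = 0.000697), and the call held in all 14 alternatives. Epidermis KO held 249, 198 and 171 CPM, against 139, 119.7 and 164 CPM in Epidermis WT, so that the groups stood apart by a narrow margin. The epidermal log2 fold change was 0.57 (SE 0.17, adjusted p = 0.0215). This call was lost with the share of Y-linked counts as a covariate (0.33, adjusted p = 0.269) and without Epidermis WT 1 (adjusted p = 0.0743), Epidermis WT 2 (adjusted p = 0.08) or Epidermis KO 1 (adjusted p = 0.0805), and held in the other 9 of 13 alternatives.

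Crabp1 (chromosome 9, 54764748 to 54773110, plus strand), the related retinoic acid-binding protein known in skin from the dermal papilla and other mesenchymal cells, was not called. It stood at 3.98, 5.43 and 5.08 CPM in Skin KO, inside the range of 6.30, 1.57 and 7.60 CPM in Skin WT, and the log2 fold change of 0.01 had an SE of 0.52 (adjusted p = 0.993). The WT spread came from Skin WT 2, and without it the value was -0.43 (adjusted p = 0.213). In epidermis Crabp1 had 31 reads over KO (0.712 to 0.919 CPM) and 18 reads over WT (0.276 to 0.707 CPM), under the filter. By TPM, Crabp2 exceeded Crabp1 46.6, 57.1 and 52.5 times in Skin KO and 10.5, 41.5 and 6.42 times in Skin WT, so the ratio was higher in every Skin KO library. In epidermis the ratio was 288, 229 and 154 in KO and 163, 358 and 262 in WT, where the groups overlapped.

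Cyp26b1 (chromosome 6, 84571414 to 84593908, minus strand), which encodes a hydroxylase that inactivates retinoic acid, fell in both tissues. It stood at 30.8, 28.9 and 33.1 CPM in Skin KO against 44.5, 78.7 and 78.7 CPM in Skin WT, and at 3.72, 6.94 and 6.86 CPM in Epidermis KO against 19.4, 36.8 and 37.3 CPM in Epidermis WT. Neither pair of groups overlapped. Among the WT libraries replicate 1 was the lowest in both tissues. The log2 fold change was -1.03 in skin (SE 0.22, adjusted p = 0.00901) and -2.39 in epidermis (SE 0.31, adjusted p = 0.000422). The skin call was lost with the share of Y-linked counts as a covariate (-1.07, adjusted p = 0.0561) and when Skin KO 1 and 3 were left out (-1.10, adjusted p = 0.121), which leaves Skin KO 2 alone on the KO side, while the estimate barely moved. The epidermal call held in all 13 alternatives.

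Aldh1a3 and Cyp26b1 encode enzymes that make and remove retinoic acid, and their TPM values were set side by side after both had been seen. The ratio of Aldh1a3 to Cyp26b1 was 3.14, 7.32 and 6.47 in Skin KO and 0.199, 0.327 and 0.165 in Skin WT. It was 10.3, 16.9 and 6.82 in Epidermis KO and 0.0424, 0.113 and 0.0209 in Epidermis WT. Aldh1a3 RNA thus exceeded Cyp26b1 RNA in all 6 KO libraries and stayed below it in all 6 WT libraries. The ratio leaves out Aldh1a1, another retinal dehydrogenase, which averaged 58.5 TPM in Skin WT and 5.46 TPM in Skin KO. In Skin WT its mean alone was above that of Cyp26b1 (23.3 TPM). In epidermis Aldh1a1 averaged 3.43 TPM in WT and 1.05 TPM in KO. The ratio therefore does not stand for all enzymes that make retinoic acid. These are ratios of RNA levels, given without a test, and retinoic acid itself was not measured.

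**Figure D3:**
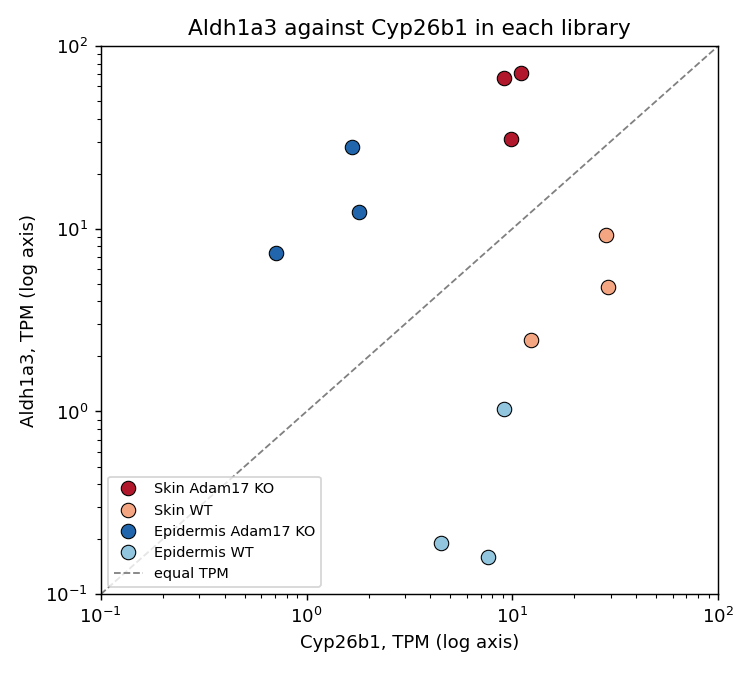
Deposited TPM of Aldh1a3 against Cyp26b1 (both log axes) in each of the 12 libraries, coloured by group, with a dashed line where both are equal. The 6 KO libraries lie above the line, at ratios of 3.14 to 16.9, and the 6 WT libraries below it, at 0.0209 to 0.327. Other retinal dehydrogenases are not drawn.

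Rarg (chromosome 15, 102234938 to 102257517, minus strand), the retinoic acid receptor gamma and the main RAR of epidermis, varied least among the 9 genes. Skin KO held 184, 181 and 193 CPM, against 184, 259 and 222 CPM in Skin WT, with overlap at the low end of WT. Epidermis KO held 263, 245 and 267 CPM, against 334, 314 and 304 CPM in Epidermis WT, without overlap, as for 62.0% of all genes tested there. The log2 fold change was -0.16 in skin (SE 0.15, adjusted p = 0.397) and -0.28 in epidermis (SE 0.11, adjusted p = 0.0591), and neither passed. The epidermal difference passed with DESeq2 (adjusted p = 0.034) and without Epidermis WT 3 (adjusted p = 0.0397).

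Among the Skin KO libraries, replicate 2 had 0 Y-linked reads. In that library Stra6 (25.6 CPM), Aldh1a3 (126 CPM), Dhrs9 (31.5 CPM) and Crabp2 (376 CPM) all lay above every Skin WT library. Rbp4 (1.79 CPM), Cyp26b1 (28.9 CPM) and Aldh1a2 (0.143 CPM) all lay below. This follows from the lack of overlap between the skin groups, which 58.0% of all genes tested in skin share. It is thus no further test of the part of Y-linked reads. With the share of Y-linked counts as a covariate, Stra6, Aldh1a3 and Dhrs9 kept their calls in both tissues, as did Rbp4 and Crabp2 in skin and Cyp26b1 in epidermis, while Cyp26b1 and Aldh1a2 in skin and Crabp2 in epidermis lost theirs. Since all 3 Epidermis KO libraries held Y-linked reads, the epidermal fit with this covariate does not separate them from the knockout. A list of 7 genes of stressed keratinocytes rose with these genes in every KO group, 7 of 7 in each tissue, with a summed level of 18359 to 26373 CPM in Skin KO and 226 to 366 CPM in Skin WT, and of 6850 to 21409 CPM in Epidermis KO and 95.5 to 110.4 CPM in Epidermis WT. Of all genes tested, 22.2% rose in skin and 26.2% in epidermis. Other marker lists held rises in both tissues too. Melanocyte genes rose 5 of 5 in skin and 4 of 5 in epidermis. Langerhans and dendritic cell genes rose 3 of 5 and 4 of 5. The part of these lists in the retinoid results was not tested.

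Whether the knockout acted differently in the tissues was tested as the difference between the epidermal and the skin log2 fold change, in 1 fit of all 12 libraries. Of all genes tested, 16.5% differed (10.1% higher in epidermis, 6.36% lower), and of the 9 retinoid genes Crabp2 and Rbp4 did. The Crabp2 effect was smaller in epidermis by 1.54 on the log2 scale, that is a difference of -1.54 (SE 0.30, adjusted p = 0.0074), and this call held in all 17 alternatives. For Rbp4 the difference was 7.05 (SE 0.96, adjusted p = 0.00148), with more epidermal reads in KO than in WT against fewer in skin, and its size depends on the 2 reads of Epidermis WT. Marker lists differed as well: 9 of 9 dermal fibroblast genes were higher and 3 of 6 basal keratinocyte genes lower. The part of these markers in the Rbp4 and Crabp2 results was not tested. Dhrs9 (1.18, SE 0.38, adjusted p = 0.0527) and Cyp26b1 (-1.29, SE 0.42, adjusted p = 0.0583) narrowly missed the threshold. Both passed with DESeq2 (adjusted p = 0.0143 and 0.0157) and with the replicate number within each tissue as a block (adjusted p = 0.0476 and 0.0135), and Aldh1a3 (1.84, SE 0.91, adjusted p = 0.182) passed with that block (adjusted p = 0.0131). Stra6 (-0.75, SE 0.75, adjusted p = 0.514), Crabp1 (0.76, SE 0.77, adjusted p = 0.516), Aldh1a2 (2.75, SE 1.30, adjusted p = 0.163) and Rarg (-0.04, SE 0.17, adjusted p = 0.889) did not differ detectably, and these errors leave room for sizeable differences in all but Rarg.

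Between the WT tissues, where 42.9% of all genes tested passed (17.5% higher, 25.3% lower), 7 of the 9 genes did, 2 higher and 5 lower in epidermis. Crabp2 was 0.93 higher on the log2 scale in Epidermis WT than in Skin WT (SE 0.19, adjusted p = 0.00612). Rarg was 0.50 higher (SE 0.16, adjusted p = 0.0356), a call lost in 8 of 12 alternatives, where the adjusted p reached 0.367. Lower in epidermis were Crabp1 (-3.40, SE 0.68, adjusted p = 0.00561), Aldh1a3 (-3.18, SE 0.70, adjusted p = 0.00842), Cyp26b1 (-1.13, SE 0.30, adjusted p = 0.019), Rbp4 and Aldh1a2. The Aldh1a3 value was -4.61 without Epidermis WT 2, and the Cyp26b1 call was lost without Skin WT 3 (adjusted p = 0.0678) or Epidermis WT 1 (adjusted p = 0.0504). Rbp4 had 2 reads over Epidermis WT and 1321 over Skin WT, 593-fold lower per read total (95% counting interval 164 to 4900). Aldh1a2 had 1 and 48, 43.1-fold lower (7.38 to 1740). These folds use reads pooled over libraries, and the intervals leave out the spread between libraries. In the separate edgeR fit the adjusted p of Rbp4 was 5.79e-05. Rbp4, Aldh1a2, Crabp1 and Aldh1a3 reached the expression filter here through their Skin WT libraries. Dhrs9 (-0.89, adjusted p = 0.074) and Stra6 (0.49, adjusted p = 0.593) did not pass.

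Between the KO tissues, where 29.9% of all genes tested passed (14.1% higher, 15.9% lower), 4 of 8 tested retinoid genes did, 1 higher and 3 lower. Of these, Crabp1 and Rbp4 reached the expression filter through their Skin KO libraries. Rarg was 0.47 higher in Epidermis KO than in Skin KO (SE 0.07, adjusted p = 0.00522). Crabp1 (-2.61, SE 0.26, adjusted p = 0.0019), Cyp26b1 (-2.41, SE 0.23, adjusted p = 0.00171) and Rbp4 (-1.63, SE 0.50, adjusted p = 0.0441) were lower, and the Rbp4 call was lost in 5 of 12 alternatives. Crabp2 (-0.58, adjusted p = 0.0742) and Aldh1a3 (-1.30, adjusted p = 0.0801), which differed between the WT tissues, did not pass here, and neither did Dhrs9 (0.31, adjusted p = 0.0785) or Stra6 (-0.22, adjusted p = 0.585). These tissue differences depend on the scaling: without TMM, by library totals, all genes shifted by a median of -0.24 (WT) and -0.29 (KO) on the log2 scale. The Rarg calls were lost under that scaling (0.25 in WT, adjusted p = 0.367, and 0.18 in KO, adjusted p = 0.187).

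Around these genes, 38 other genes of retinoid transport, storage, oxidation, degradation, carotenoid cleavage and nuclear reception were counted. In skin 13 of 32 tested were higher in KO (22.2% of all genes tested were), 10 were lower (23.3% of all) and 9 did not pass, with a median log2 fold change of -0.04, against a median of 0.00 over all genes. In epidermis 12 of 27 were higher (26.2% of all), 6 were lower (25.3% of all) and 9 did not pass, with a median of 0.25. Genes of these lists thus passed in both directions. Of the genes named below, Lrat reached the expression filter through its KO libraries in both tissues. In skin Rbp7, Rxrg, Rarb, Bco1 and Bco2 reached it through their WT libraries, as did Bco1 in epidermis.

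The intracellular carriers Rbp2 and Fabp5 rose in both tissues. Rbp2, a cellular retinol-binding protein known mainly from intestine, rose by 4.06 in skin (SE 0.25) and 2.18 in epidermis (SE 0.27). Fabp5, a fatty acid-binding protein of keratinocytes that can also carry retinoic acid, rose by 3.56 in skin (SE 0.25) and 2.73 in epidermis (SE 0.26). The endothelial and adipocyte retinol-binding gene Rbp7 fell by 2.26 in skin, a call lost when Skin KO 1 and 3 were left out (adjusted p = 0.0845). All 8 adipocyte markers and 5 of 6 endothelial markers fell there too, while the endothelial marker Flt1 rose (33.5 ± 6.89 CPM in Skin KO, 10.4 ± 2.48 CPM in Skin WT, SD, n = 3). Of all genes tested in skin 23.3% fell, and the part of these markers in the Rbp7 result was not tested. Rbp7 had 17 reads over Epidermis KO and 16 over Epidermis WT.

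Of 4 genes of retinyl ester formation and release, 2 rose and 1 fell in each tissue. Of all genes tested, 22.2% rose and 23.3% fell in skin, and 26.2% rose and 25.3% fell in epidermis. Lrat, the lecithin:retinol acyltransferase that stores retinol as esters, had 14.5 to 20.5 CPM in Skin KO against 0.0523 to 0.841 CPM in Skin WT, and 29.0 to 49.3 CPM in Epidermis KO against 0.707 to 2.21 CPM in Epidermis WT. No KO library overlapped WT, and the log2 fold changes were 5.38 in skin (SE 0.58, adjusted p = 0.000704) and 4.69 in epidermis (SE 0.37, adjusted p = 4.04e-05). They rested on few WT reads, 21 in skin and 53 in epidermis, and were 6.12 without Skin WT 1 and 5.28 without Epidermis WT 2. Dgat1, an acyltransferase that also esterifies retinol in mouse skin, rose by 1.61 in skin and 1.30 in epidermis. Lipe, the hormone-sensitive lipase that can release retinol from esters and is abundant in fat, fell by 1.89 in skin together with the adipocyte markers and stood at -0.04 in epidermis (adjusted p = 0.877). The part of the adipocyte markers in the Lipe result was not tested. Awat2, an acyl-CoA wax alcohol acyltransferase, fell by 1.05 in epidermis (adjusted p = 0.0218, lost in 4 of 13 alternatives). It did not pass in skin (-0.30, adjusted p = 0.242).

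Among 16 oxidoreductases of retinol and retinal, 7 of 14 tested rose and 2 fell in skin (22.2% and 23.3% of all genes tested), and 6 of 14 rose and 2 fell in epidermis (26.2% and 25.3% of all). Rdh10, the main retinol dehydrogenase of the embryo, rose by 1.84 in skin (SE 0.19, adjusted p = 0.000638) and 1.52 in epidermis (SE 0.14, adjusted p = 9.32e-05). Rdh11, Rdh12 and Sdr16c6 rose by 1.34, 1.27 and 1.55 in skin and by 1.11, 1.03 and 0.97 in epidermis, where the Sdr16c6 call was lost with the share of Y-linked counts as a covariate (0.63, adjusted p = 0.0803). Adh1, the cytosolic alcohol dehydrogenase, fell by 2.95 in skin and 1.49 in epidermis. The epidermal value was -2.22 without Epidermis KO 2, and its call was lost with that covariate (-0.68, adjusted p = 0.169). Dhrs3, a retinal reductase, was named after its values were seen and fell by 0.66 in skin, a call lost when Skin KO 1 and 3 were left out (adjusted p = 0.176), and by 0.96 in epidermis. Aldh1a1, the third retinal dehydrogenase, moved opposite to Aldh1a3: it held 4.79 to 11.3 CPM in Skin KO against 46.7 to 131 CPM in Skin WT, and 1.70 to 2.63 CPM in Epidermis KO against 5.73 to 8.22 CPM in Epidermis WT. Its log2 fold changes were -3.35 (SE 0.48, adjusted p = 0.00194) and -1.74 (SE 0.28, adjusted p = 0.00108), and the skin value was -4.07 with the Y-linked covariate. The carotenoid-cleaving enzyme Bco1 fell by 2.0 in skin (3.20 without Skin KO 1, 4.10 with the Y-linked covariate) and 3.94 in epidermis (2.94 with that covariate), and Bco2 fell by 1.27 in skin. The skin calls of Bco1 and Bco2 were lost in 4 and 3 of 14 alternatives. Cyp26a1, a hydroxylase like Cyp26b1 that retinoic acid induces in many cells, had at most 1 read over any group.

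**Figure D4:**
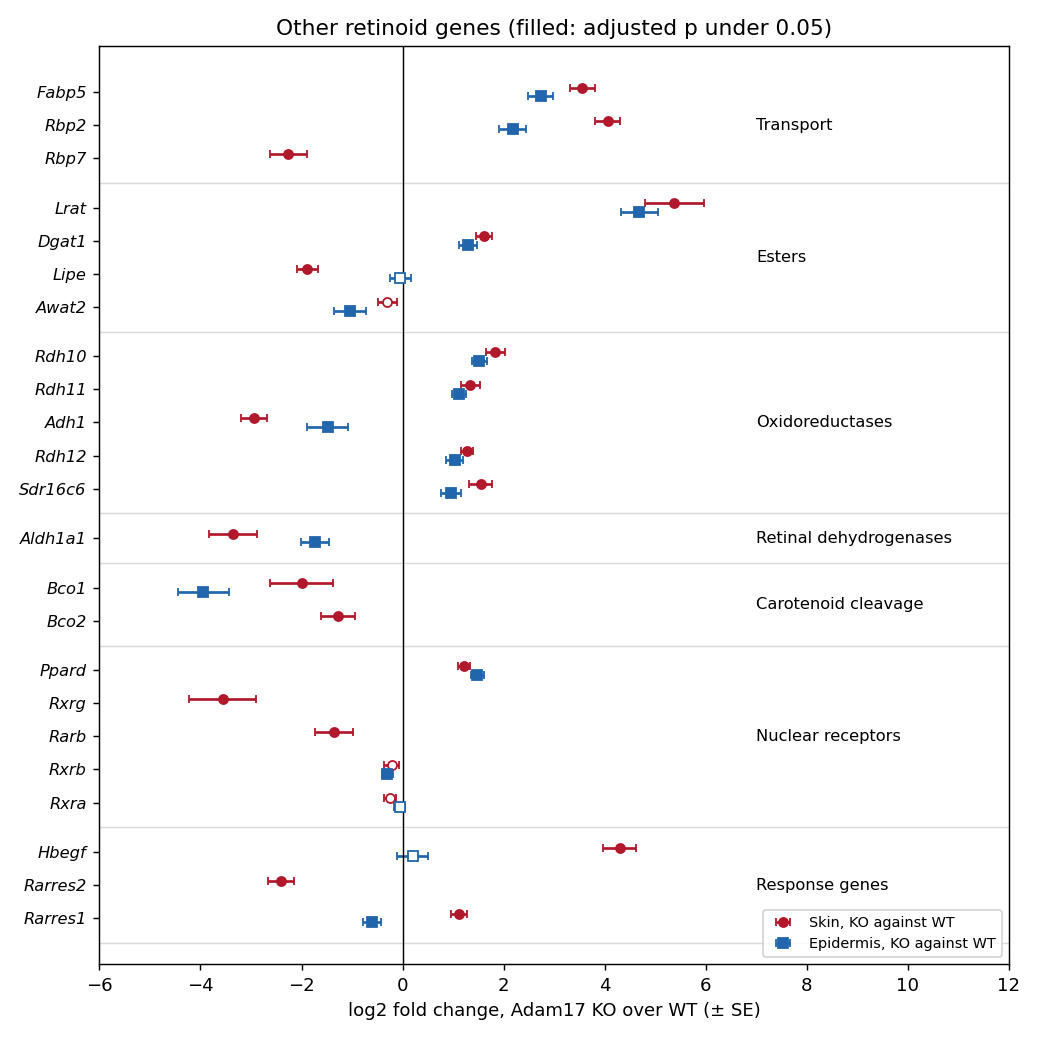
Log2 fold change, KO over WT, of named genes of the other retinoid lists in skin (circles) and epidermis (squares), with bars of 1 SE from edgeR, grouped by role. Filled symbols passed an adjusted p of 0.05. Lrat lies at 5.38 in skin and 4.69 in epidermis, above every other gene shown, and Aldh1a1, Adh1 and Bco1 lie below -1 in both tissues.

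Of 6 nuclear receptors other than Rarg, 1 rose and 2 fell in skin (22.2% and 23.3% of all genes tested). In epidermis 1 of 4 tested rose and 1 fell (26.2% and 25.3% of all). Rxra, the most abundant of them, did not pass in skin (-0.24, adjusted p = 0.127) or epidermis (-0.05, adjusted p = 0.701). Rxrb did not pass in skin (-0.22) and passed narrowly in epidermis (-0.30, adjusted p = 0.0485), a call lost in 12 of 13 alternatives. Ppard, a lipid-sensing receptor that retinoic acid can also reach through FABP5, rose by 1.22 in skin (SE 0.12, adjusted p = 0.000546) and 1.48 in epidermis (SE 0.13, adjusted p = 5.88e-05). Rxrg, which is abundant in muscle, fell by 3.56 in skin (2.74 without Skin WT 1, and no longer called when Skin KO 1 and 3 were left out, adjusted p = 0.0856), where 6 of 7 skeletal muscle markers fell too (439 to 2396 CPM in Skin KO, 6775 to 55167 CPM in Skin WT). The part of the muscle markers in the Rxrg result was not tested. Rarb fell by 1.36 in skin, a call lost in 6 of 14 alternatives.

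A list of 14 genes known to respond to retinoic acid in various cells went both ways. In skin 6 of 12 tested rose and 4 fell (22.2% and 23.3% of all genes tested), and in epidermis 4 of 9 rose and 2 fell (26.2% and 25.3% of all). Lrat, described above, was among the rises in both tissues. Hbegf, which encodes an EGFR ligand, held 63.9 to 132 CPM in Skin KO against 4.55 to 6.38 CPM in Skin WT, while Epidermis KO (51.7 to 103 CPM) and Epidermis WT (41.8 to 87.2 CPM) overlapped. Rarres1, the retinoic acid receptor responder 1, rose by 1.11 in skin and fell by 0.61 in epidermis (adjusted p = 0.0199), a call lost without Epidermis WT 1 (adjusted p = 0.0591) or WT 3 (adjusted p = 0.0512). Rarres2, which encodes chemerin, fell by 2.40 in skin, with 8.10 to 16.4 CPM in Skin KO against 64.7 to 70.5 CPM in Skin WT. All 8 adipocyte markers and 5 of 9 dermal fibroblast markers fell there too. The part of these markers in the Rarres2 result was not tested.

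For each of the 9 genes, genes with the most similar profile over the 12 libraries were found by root mean square distance between centred log2 CPM, among 9096 genes with a mean of at least 10 CPM. Rarg had the closest neighbours, Tpbg at 0.07 and Gpr107 at 0.09, followed by Crabp2 with the lipid transporter Mfsd2a at 0.21 and the glucose transporter Slc2a1 at 0.22. Cyp26b1 lay nearest to Spns2 (0.31) and Cpa4 (0.41), and Dhrs9 to Slc1a1 (0.35). Farther off were Aldh1a2 from Slc1a5 (0.57) and Dusp3 (0.59), Crabp1 from Acta2 (0.58) and Msrb3 (0.61), and Rbp4 from Serpinf1 (0.60) and Nid1 (0.65). Stra6 was nearest to Slc34a2 (0.72) and the connexin gene Gjb2 (0.77), and Aldh1a3 to the proton pump gene Atp12a (1.02) and the stress keratin Krt6a (1.04). The distances are descriptions over libraries that share 4 groups, and Rarg, which varied by 0.31 about its own mean, had less room for distance than Rbp4, which varied by 3.06.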

How the data were processed

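Poly(A) libraries were made with a stranded kit, per the labels' protocols, and groups and replicate numbers were read from the sample titles. The deposited tables hold expected counts per gene, which the authors obtained with bcl2fastq 2.17, STAR 2.5.1, RSEM and the mm10 build, per the submitters' processing notes. TPM values per library, computed by the authors per the file headers, were used only to compare genes with each other. Neither the strand setting of the counting nor the annotation release is given in the sources used here. RSEM splits multi-mapping reads among genes by probability.

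Of 47643 gene IDs, 47224 matched GENCODE mouse release 21 (GRCm38, also called mm10) without the version number, and 419 did not (at most 0.0612% of a library's counts). After rounding, which moved a value by at most 0.5 counts, the expected counts were tested with edgeR 4.0.16 in R 4.3.3 (TMM scaling, default expression filter, quasi-likelihood fit, Benjamini-Hochberg adjustment over all genes, threshold 0.05). The procedure was tested on simulated counts. SE is the size of the log2 fold change divided by the square root of F. Counting intervals are exact binomial at 95%.

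The 9 genes, the gene lists and the marker lists were chosen with earlier results of these data known. Named genes were the 9, up to 4 genes of each other retinoid list with the smallest adjusted p plus its most abundant gene, and the 2 most similar profiles for each of the 9. Of the genes this rule gives, 2 are not reported here. Profiles used log2 CPM with a prior count of 0.5.

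No library was a duplicate of another in its group (chi-square of their counts at least 12.4 times its degrees of freedom). Skin KO and Skin WT libraries of the same number deviated together from their group means (correlations of 0.33, 0.36 and 0.17 across genes). Those of unlike number gave -0.42 to 0.12. The labels give no pairing, and with 3 libraries per group these values do not settle whether the libraries were paired. The values given come from fits without a replicate block. Epidermis libraries (0.06, 0.10 and -0.02) were not taken as paired. Alternatives were DESeq2 1.42.0, RLE scaling, library totals, testing without a low-count filter, fitting the 12 libraries together, a replicate block, the share of Y-linked counts as a covariate, leaving out KO libraries with Y-linked reads, and leaving out each library.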

Additional observations from a re-analysis of the deposited data

Results flagged for a closer look

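The effect of the knockout differed between epidermis and skin, by a test of the difference itself in edgeR with Benjamini-Hochberg adjustment, for 2 of the 9 retinoid genes, 3 of 32 other retinoid genes tested (Rbp2, Rbp7 and Lipe) and 5 of 12 response genes tested, of which Rarres1, Rarres2 and Hbegf are named, beside 16.5% of all genes tested. Differences are epidermal minus skin log2 fold changes. Crabp2 differed by -1.54 (adjusted p = 0.0074), with a larger rise in skin. Rbp4 differed by 7.05 (adjusted p = 0.00148), a size that rests on 2 reads over Epidermis WT. Rbp2 differed by -1.80 (adjusted p = 0.0117), with a rise in both tissues that was larger in skin. Rbp7 differed by 2.35 (adjusted p = 0.0363), a call lost in 11 of 17 alternatives, where the adjusted p reached 0.0925. Lipe differed by 1.92 (adjusted p = 0.00297), with a fall in skin and no call in epidermis. Rarres1 differed by -1.64 (adjusted p = 0.00305), with a rise in skin and a fall in epidermis whose call was lost without Epidermis WT 1 or WT 3. Rarres2 differed by 4.89 (adjusted p = 0.00282), on 19 reads over Epidermis KO and 3 over Epidermis WT. Hbegf differed by -4.02 (adjusted p = 0.00104), with a rise in skin alone past the threshold. Marker lists differed as well. Higher in epidermis by this test were 9 of 9 dermal fibroblast, 5 of 6 endothelial, 5 of 7 skeletal muscle and 4 of 8 adipocyte genes. Lower were 3 of 6 basal keratinocyte genes. Of all genes tested, 10.1% were higher and 6.36% lower. The part of these markers in the retinoid results was not tested. All comparisons share their libraries, so these are not independent results.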

How the results depend on the processing

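Stra6, Aldh1a3 and Dhrs9 kept their direction and call in both tissues, and Rbp4 and Crabp2 in skin, in all 14 skin and 13 epidermis alternatives. In skin 7 of the 9 genes passed, and 6 or 7 did with 1 library left out (4944 to 7770 of all genes, against 6780). With Skin KO 1 and 3 left out for their Y-linked reads, which leaves 1 KO library and a spread taken from WT alone, 2658 genes passed. That setting was not run in epidermis, where every KO library held such reads. With the share of Y-linked counts as a covariate 4540 epidermal genes passed, against 7014, and with 1 library left out 5856 to 6573 did, with 4 to 7 of the retinoid genes. With 1 library left out the filter kept 6 or 7 of the 9 retinoid genes. For the difference between tissues, 2 retinoid genes passed, 4 with DESeq2, 5 with the replicate block, and 2 or 3 with 1 library left out (1393 to 3940 of all genes, against 2539; 3940 without Skin WT 1, 1436 without Skin WT 3, 1393 without Skin KO 2, 1581 without Epidermis WT 3 and 1412 without Epidermis KO 2). Between tissues with 1 library left out, 5 to 7 retinoid genes (4198 to 7830 of all genes) passed in WT and 3 to 5 (2328 to 3561) in KO, and the replicate block, which the data do not support there, gave 2805 genes in KO against 4227, the Rarg call in WT lost (adjusted p = 0.0834), Dhrs9 called in WT (adjusted p = 0.0379), and in KO Rbp4 lost (adjusted p = 0.0628) and Aldh1a3 called (adjusted p = 0.0302). Besides these calls and the gains of Dhrs9, Cyp26b1 and Aldh1a3 in the difference between tissues, the block changed no call of the 9 genes. By library totals 1333 genes were higher and 4314 lower in WT epidermis than in skin, against 2561 and 3697 with TMM, and 610 and 4326 in KO, against 1989 and 2238.

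Signs changed only for values that did not pass. Crabp1 in skin was -0.0025 with DESeq2, -0.035 by library totals, -0.0011 with no filter, -0.088 in 1 fit of all 12 libraries and -0.43 to 0.38 with 1 library left out. With 1 library left out, Hbegf in epidermis ran from -0.079 to 0.44, Lipe in epidermis from -0.16 to 0.18, the differences between tissues of Rarg, Rdh11 and Rxrb from -0.17 to 0.076, from -0.26 to 0.022 and from -0.11 to 0.068, and Stra6 between tissues from -0.018 to 1.57 in WT and from -0.39 to 0.14 in KO. Where no value shows it, the cause was not tested. Depth limits Aldh1a2 in all groups and Rbp4 and Crabp1 in epidermis.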
